A study of Mus musculus with 6 samples.

Results

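The 9 genes described here encode enzymes that make or use glutamine, glutamate, proline and asparagine: Glul, Glud1, Got1, Got2, Gpt2, Asns, Aldh18a1, Pycr1 and Oat. They were chosen by name, with earlier results of these data known, and all 9 were found among the 28773 genes in the files. RNA was sequenced from CD8+ T cells of mouse spleens on day 35 to ask how the glycolysis inhibitor 2DG (2-deoxy-D-glucose) altered these cells after tumor ablation. MWA+PBS samples (n = 3, replicates 1 to 3) came from mice given microwave ablation of the tumor and the vehicle PBS. MWA+2DG samples (n = 3, replicates 4 to 6) came from mice given the same ablation and then 2DG. Both groups had therefore borne and lost a primary tumor, and the study's methods describe injections of 2DG or PBS that began at ablation and ended before day 35. The strain, age and tumor line of the mice behind these samples are not given by the labels. Nor do the labels state that each sample was a separate mouse, so p-values measure the spread between samples, which may be technical.

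Glutamine carries nitrogen between tissues and is the amide donor for nucleotide, amino sugar and asparagine synthesis. Glutamine synthetase (Glul) makes it from glutamate and ammonia, and transaminases and glutamate dehydrogenase link glutamate to the citric acid cycle. Glutamate is also the starting point of proline, through the enzymes encoded by Aldh18a1 and Pycr1. Activated T cells take up glutamine and asparagine, and raise Asns when asparagine is scarce.

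Values are FPKM (fragment counts divided by transcript length and by library size), which allow levels to be compared between genes. FPKM totals lay between 291803 and 313257 per sample, and the read depth is unknown. Genes with at least 1 FPKM numbered 12480 to 12515 in the MWA+PBS samples but 12198 to 12282 in the MWA+2DG samples. Mitochondrial genes held 21.4% to 22.8% of FPKM in the first group and 19.4% to 20.7% in the second. Markers of T lineage and CD8 cells were high in every sample, with a summed FPKM of 2156 to 2316 (MWA+PBS) or 3050 to 3293 (MWA+2DG), and 15 of 16 were higher in MWA+2DG. The 15 macrophage markers, all lower in MWA+2DG, summed to 957 to 1036 FPKM and to 140 to 148 FPKM, in that order of groups. The sum of 10 erythroid markers, all lower, was 310 to 366 and 81.1 to 97.4 FPKM. That of 11 neutrophil markers, all higher, was 57.4 to 84.1 and 1586 to 1766 FPKM, and that of 6 B cell markers, all higher, was 8.84 to 10.1 and 44.9 to 49.8 FPKM. MWA+PBS replicates 1 and 2 stood apart, because kidney tubule genes were detected in them. The 8 kidney tubule markers summed to 38.0 and 73.1 FPKM there, were each listed at 0 in MWA+PBS replicate 3, and summed to at most 0.01 FPKM in MWA+2DG. In bulk RNA, fewer cells of a type and less RNA per cell cannot be told apart. No batch is named in the labels, and the treatment and an unnamed batch running along the groups cannot be told apart. Of the other tested markers, those of granulocyte progenitors (5 of 5), dendritic cells (2 of 2), CD4 T cells (2 of 3), plasma cells (1 of 2) and natural killer cells (1 of 1) were lower in MWA+2DG.

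The promoters of Asns, Pycr1 and Got1 are shown because, of the 9 genes, these 3 hold the letters TGATGNAA within 250 bases before the start, a core of the elements bound by the amino acid response factor ATF4. The promoter of Glul, which holds no match, is shown because Glul differed most between the groups. Capitals mark the match on either strand, and the windows are RefSeq sequence of build GRCm38.p6, read 5′ to 3′ toward the start of the gene.
Asns, chr6:7693210-7693459, minus strand: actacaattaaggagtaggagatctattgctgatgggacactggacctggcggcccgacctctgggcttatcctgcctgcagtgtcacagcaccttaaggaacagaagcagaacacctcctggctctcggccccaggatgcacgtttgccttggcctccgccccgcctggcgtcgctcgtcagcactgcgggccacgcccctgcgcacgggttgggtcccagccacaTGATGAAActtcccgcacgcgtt
Pycr1, chr11:120643749-120643998, minus strand: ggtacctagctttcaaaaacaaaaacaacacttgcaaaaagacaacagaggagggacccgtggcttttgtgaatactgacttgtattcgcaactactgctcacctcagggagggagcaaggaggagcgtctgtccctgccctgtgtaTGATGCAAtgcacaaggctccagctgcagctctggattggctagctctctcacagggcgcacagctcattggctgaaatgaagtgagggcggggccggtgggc
Got1, chr19:43524606-43524855, minus strand: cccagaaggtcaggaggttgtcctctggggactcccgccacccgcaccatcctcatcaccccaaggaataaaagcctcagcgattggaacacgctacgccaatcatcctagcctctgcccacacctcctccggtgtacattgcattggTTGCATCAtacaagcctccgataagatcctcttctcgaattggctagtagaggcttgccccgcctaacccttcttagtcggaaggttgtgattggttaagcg
Glul, chr1:153899679-153899928, plus strand: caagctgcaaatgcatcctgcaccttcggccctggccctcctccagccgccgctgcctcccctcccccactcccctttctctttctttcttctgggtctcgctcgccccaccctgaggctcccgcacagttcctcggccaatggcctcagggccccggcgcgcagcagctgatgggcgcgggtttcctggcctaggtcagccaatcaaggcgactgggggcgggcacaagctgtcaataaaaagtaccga
The match began 23 bases before the start of Asns, 103 bases before that of Pycr1 and 102 bases before that of Got1. Of 32851 such windows, 3.45% held these letters. The E-box CACGTG, which does not overlap them, was found in 6.02% of windows and, among the 9, in the window of Aldh18a1 only. A match is a description of these letters and was not tested as a site.

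Glul, encoding glutamine synthetase, was lower in MWA+2DG, and so were Asns, Oat, Got1 and Got2. Glud1 and Aldh18a1, encoding the entry enzymes of glutamate oxidation and of proline synthesis, did not pass the test, and Gpt2 and Pycr1 were too low to be tested. Of the 9 genes, 7 averaged at least 1 FPKM across the samples and were tested with limma on log2(FPKM + 1), the scale of the log2 fold changes unless another is named. At a Benjamini-Hochberg adjusted p under 0.05 over the 12444 genes tested, 5 of the 7 were lower and 0 higher. Across all genes tested, 17.1% were lower and 22.3% higher. The study's rule was read here as a log2 fold change beyond 0.25 at an unadjusted P under 0.05. Its methods state neither the base of the log nor whether P was adjusted. By this rule 4 of the 7 were lower and 0 higher, since Got2 was below that size. Of all genes, 16.6% were lower and 21.6% higher by it. All 3 MWA+2DG values lay below all 3 MWA+PBS values for 6 of the 7 genes, as for 21.9% of all genes, while 30.2% of all genes lay wholly above. The median log2 fold change was -0.26 over the 7 genes and 0.05 over all genes tested.

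**Figure D1:**
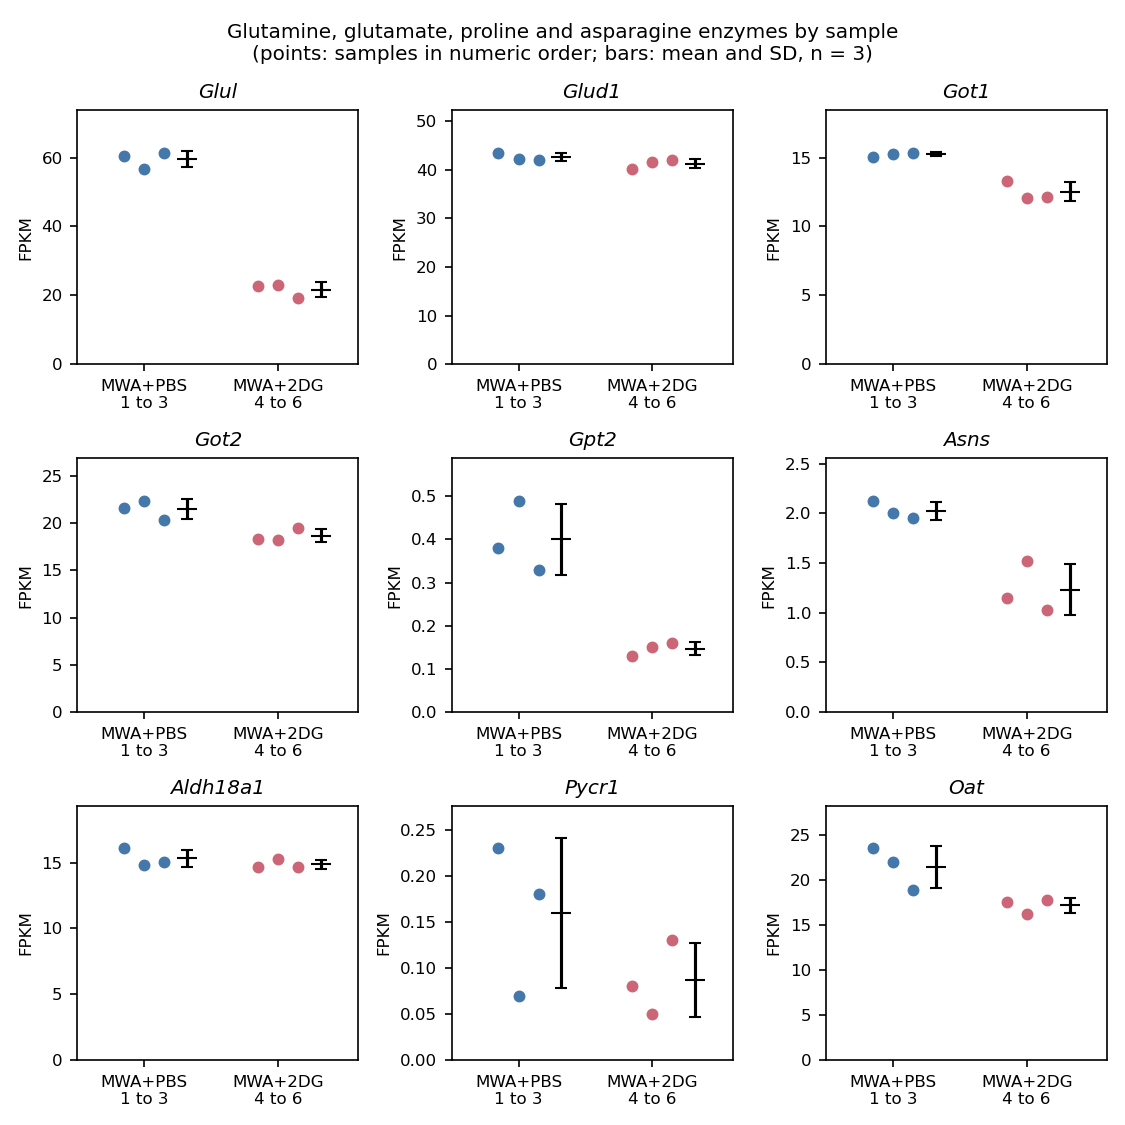
FPKM of the 9 enzyme genes in each of the 6 samples, 1 panel a gene with its own axis from 0; points are samples and bars give mean and SD (n = 3). The 3 MWA+2DG points of Glul sit between 19.1 and 23.1 FPKM, below the MWA+PBS points between 56.8 and 61.4, while those of Aldh18a1 overlap.

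The calls depended on which libraries were kept. Without MWA+PBS replicates 1 and 2, the libraries with kidney tubule transcripts, 1 of the 7 genes was lower, Glul, and 11% of all genes were lower. That fit, chosen after seeing the data, sets a single MWA+PBS sample against 3 and assumes that it varies like the MWA+2DG samples. The count was 2 without MWA+PBS replicate 1 alone and 3 when replicate 2 or any of replicates 4 to 6 was left out. In those fits 12.7% of all genes were lower without replicate 1, 17.5% without replicate 2 and 14.1% to 14.8% without replicates 4 to 6.

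Glul was the most abundant of the 9 transcripts in MWA+PBS. It was 60.5, 56.8 and 61.4 FPKM in MWA+PBS and 22.8, 23.1 and 19.1 FPKM in MWA+2DG. The groups were far apart, and every MWA+PBS value lay well above every MWA+2DG value. The means were 59.6 ± 2.45 and 21.7 ± 2.22 FPKM (SD, n = 3), a 2.75-fold lower level by the ratio of mean FPKM, and the log2 fold change was -1.42 ± 0.08 (SE, limma adjusted p = 1.4e-05). Of the 12444 genes tested, 241 fell further. Without both libraries with kidney transcripts the log2 fold change was -1.47 (limma adjusted p = 0.00166). Several marker lists were lower in MWA+2DG as well. The summed FPKM of macrophage markers was on average 6.84-fold lower. Single markers such as Adgre1 (31.1 to 31.7 FPKM against 4.37 to 4.8 FPKM) and Csf1r (61.4 to 72.8 FPKM against 10.5 to 10.7 FPKM) were lower in each sample. No defining macrophage marker was at 0 in any sample. The sums of granulocyte progenitor (5.80-fold), erythroid (3.88-fold), dendritic cell (2.45-fold) and plasma cell (2.37-fold) markers were lower too. Those of CD4 T cell (1.39-fold) and natural killer cell (1.37-fold) markers were less so. Neutrophil, B cell and T lineage sums were higher. The part of any of these cells in the Glul difference was not tested.

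Glud1, encoding the glutamate dehydrogenase that turns glutamate into 2-oxoglutarate, was 43.5, 42.2 and 42.1 FPKM in MWA+PBS and 40.2, 41.6 and 42.0 FPKM in MWA+2DG. The groups almost touched without overlapping, and the log2 fold change was -0.05 (95% interval -0.16 to 0.06, limma adjusted p = 0.477). Glud1 was thus the most abundant of the 9 in MWA+2DG.

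Got1 and Got2 encode the cytosolic and the mitochondrial aspartate transaminase, which exchange amino groups between glutamate and aspartate in the malate-aspartate shuttle. Got1 was 15.1, 15.2 and 15.4 FPKM in MWA+PBS and 13.3, 12.1 and 12.1 FPKM in MWA+2DG. Got2 was 21.7, 22.4 and 20.4 FPKM in MWA+PBS and 18.4, 18.3 and 19.5 FPKM in MWA+2DG. Neither gene overlapped between the groups, but the gap was below 1 FPKM for Got2. The log2 fold change was -0.26 ± 0.06 for Got1 (SE, limma adjusted p = 0.00889) and -0.19 ± 0.06 for Got2 (SE, limma adjusted p = 0.0352). The Got1 call held when any 1 library was left out but not without both libraries with kidney transcripts, where the value was -0.28 (limma adjusted p = 0.0661). The Got2 call held only without MWA+PBS replicate 3 among the fits that leave out 1 library, and without both kidney libraries its value was -0.12 (limma adjusted p = 0.291).

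Got2 has near copies that share sequence with it. Got2-ps1 matched it at 99.1% identity over 1293 bases and Gm10874 at 98.8% over 1637 bases. Their FPKM was 1.02 to 2.72 and 1.07 to 2.08, small beside that of Got2, and neither was called (limma adjusted p = 0.724 and 0.763). Got2 is uncertain to that extent, as the rule that divided reads among copies was not stated. The Glul copies Glns-ps1 and AC134576.3 reached 0.5 and 0.19 FPKM at most, and the Glud1 copy Glud-ps 1.19 FPKM. Genes whose exons overlap Glul or Got2, Teddm2, Mir8114 and Gm45760, were each below 1 FPKM in every sample.

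Gpt2, encoding the mitochondrial alanine transaminase, was barely detected. It was 0.38, 0.49 and 0.33 FPKM in MWA+PBS and 0.13, 0.15 and 0.16 FPKM in MWA+2DG. The groups did not overlap, and mean FPKM was 2.73-fold lower in MWA+2DG. A fit without the filter on low values gave -0.29, which the pseudocount shrinks at this level (limma adjusted p = 0.0174). Both values rest on a small difference in FPKM, and the reads behind them are unknown. The cytosolic alanine transaminase gene Gpt was 1.27 and 1.39 FPKM on average and was not called (log2 fold change 0.08, limma adjusted p = 0.618).

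Asns, encoding asparagine synthetase, which moves the amide of glutamine to aspartate, was low in both groups and lower in MWA+2DG. It was 2.13, 2.0 and 1.95 FPKM in MWA+PBS and 1.15, 1.52 and 1.03 FPKM in MWA+2DG. The MWA+PBS values were close together, and the highest MWA+2DG value, in replicate 5, lay below all of them. The log2 fold change was -0.44 ± 0.11 (SE, limma adjusted p = 0.0137), and it was -0.69 with a pseudocount of 0.1, which shrinks a gene of this level less. The call was lost without MWA+PBS replicate 1 (-0.42, limma adjusted p = 0.0523) and without both libraries with kidney transcripts (-0.41, limma adjusted p = 0.141). Asns is a target of ATF4 in many cells, so the other genes of that response were compared. Of 26 genes, 20 were tested, 6 were lower and 2 higher, with a median log2 fold change of -0.09. Across all genes tested, 17.1% were lower. By the study's rule 8 were lower and 0 higher, beside 16.6% of all genes lower. Scaled to T lineage genes all 20 were lower, but so were 71.4% of all genes. Of the 6 lower at an adjusted p, the largest differences were those of Sesn2, an inhibitor of mTORC1 signalling (-0.70), Slc3a2, the heavy chain of large neutral amino acid transporters (-0.51), and Atf4 itself (-0.42). Atf4 was 45.1, 50.9 and 39.4 FPKM in MWA+PBS and 34.4, 31.5 and 34.4 FPKM in MWA+2DG. The tRNA synthetase genes Sars and Wars were higher, each at 0.19, but 0 genes of the response were called higher in 5 of the 6 fits that leave out 1 library, without a filter, with median ratio scaling and with eBayes without trend.

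Of the proline genes, Oat was called and Aldh18a1 was not. Aldh18a1 encodes the mitochondrial enzyme that commits glutamate to proline and ornithine synthesis. It was 16.1, 14.8 and 15.1 FPKM in MWA+PBS and 14.7, 15.2 and 14.7 FPKM in MWA+2DG. The groups overlapped, and the log2 fold change was -0.04 (95% interval -0.17 to 0.09, limma adjusted p = 0.597). Pycr1, encoding the mitochondrial reductase that completes proline, was 0.23, 0.07 and 0.18 FPKM in MWA+PBS and 0.08, 0.05 and 0.13 FPKM in MWA+2DG. These values overlapped and were near the limit of the files, which hold at most 2 decimals. The fit without a filter gave -0.09 (limma adjusted p = 0.372). Pycr3, encoding another reductase of this step, was 8.78 and 7.0 FPKM on average and lower (-0.29, limma adjusted p = 0.0217).

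Oat, encoding ornithine aminotransferase, which interconverts ornithine and the proline precursor glutamate semialdehyde, was 23.5, 21.9 and 18.8 FPKM in MWA+PBS and 17.6, 16.2 and 17.7 FPKM in MWA+2DG. MWA+PBS replicates 1 and 2 were the highest, and replicate 3 was only about 1 FPKM above the highest MWA+2DG value. The log2 fold change was -0.30 ± 0.09 (SE, limma adjusted p = 0.0273). Among the fits that leave out 1 library, the call held only without MWA+PBS replicate 3, and the values lay between -0.39 and -0.23. The 2 highest Oat values were in the libraries that held kidney transcripts: the kidney gene Kap was 31.6 and 67.7 FPKM in MWA+PBS replicates 1 and 2 and listed at 0 in replicate 3. Of MWA+PBS replicates 1 and 2, replicate 2 held more Kap but less Oat (21.9 FPKM against 23.5 FPKM in replicate 1). Without these 2 libraries the value was -0.13, in a fit with a single MWA+PBS sample. The part of kidney RNA in the Oat difference was not tested.

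**Figure D2:**
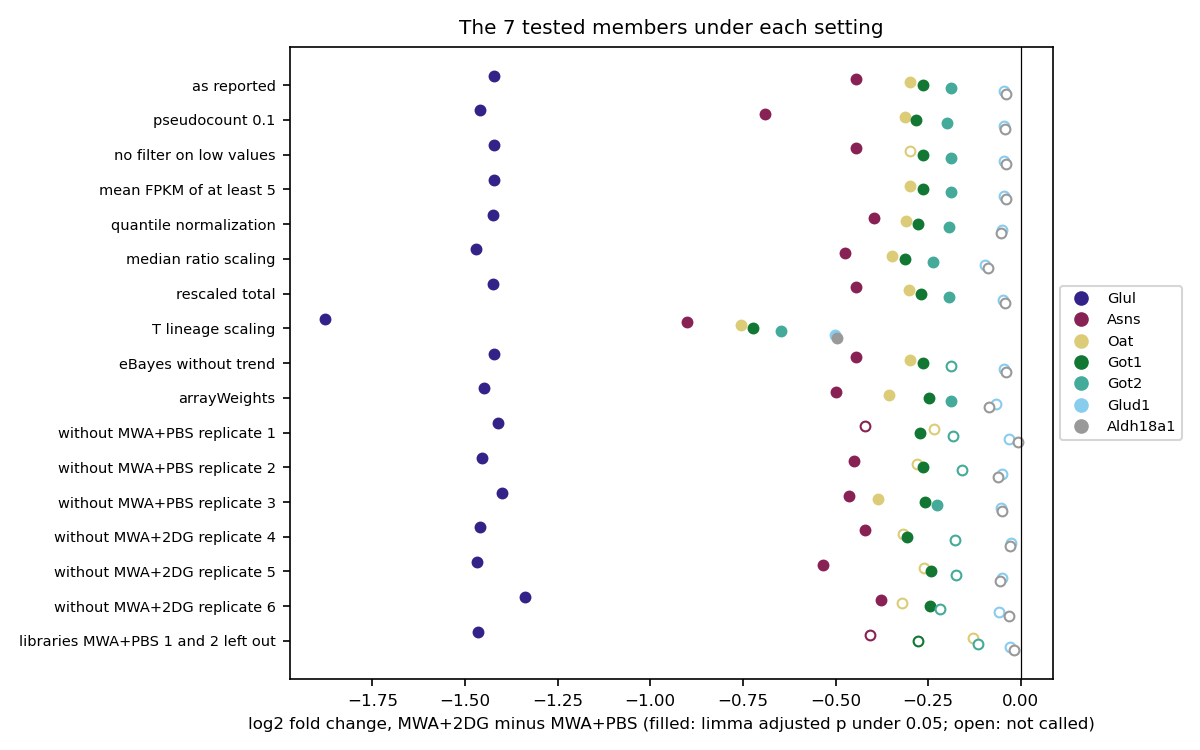
Log2 fold change of the 7 tested genes (horizontal axis, MWA+2DG minus MWA+PBS on log2(FPKM + 1)) under each of 17 settings (vertical axis), filled where called at a limma adjusted p under 0.05. Glul lies between -1.88 (scaled to T lineage genes) and -1.34 and is filled throughout, the other called genes lie closer to 0, and without MWA+PBS 1 and 2 only Glul is filled.

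The order of the levels, per length, differed between the groups. In MWA+PBS it ran from Glul through Glud1, Got2, Oat, Aldh18a1, Got1, Asns and Gpt2 to Pycr1, and the neighbours Got2 and Oat, and Aldh18a1 and Got1, overlapped. In MWA+2DG, Glud1 came before Glul, and Glul overlapped Got2. The summed FPKM of the 9 genes was 183, 176 and 175.5 in MWA+PBS and 128.3, 128.2 and 126.4 in MWA+2DG. Glul made up 33.4% of that sum in MWA+PBS and 17.0% in MWA+2DG, and its own difference of 37.9 FPKM was 74.9% of the summed difference of 50.6 FPKM. Without Glul the other 8 genes summed to 118.6 ± 4.23 and 105.9 ± 1.2 FPKM (SD, n = 3).

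Within each library, pairs of enzymes were set against each other, which does not depend on how the libraries were scaled. Of 4 ratios tested, 2 are given here, with p-values adjusted over all 4. Aldh18a1 over Oat, the entry to proline from glutamate against that from ornithine, was 0.685, 0.675 and 0.8 in MWA+PBS and 0.833, 0.942 and 0.831 in MWA+2DG. The groups did not overlap, and the log2 ratio was higher by 0.27 in MWA+2DG, with an exact permutation p of 0.1 (two-sided, adjusted 0.2), the smallest that 3 against 3 samples allow. Without MWA+PBS replicates 1 and 2 it was higher by 0.12. Got2 over Got1, the mitochondrial against the cytosolic transaminase, was 1.44, 1.47 and 1.32 in MWA+PBS and 1.38, 1.51 and 1.6 in MWA+2DG. These values overlapped, with a log2 difference of 0.09 (exact permutation p = 0.4, adjusted 0.4). No ratio could reach 0.05 in this design.

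**Figure D3:**
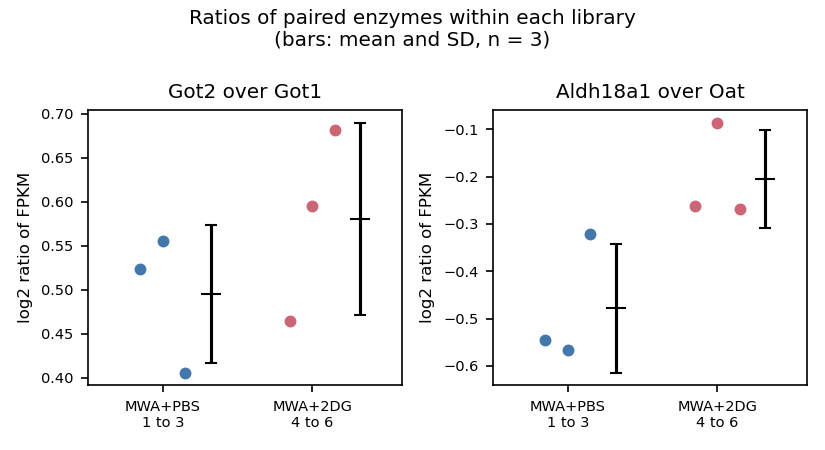
Log2 ratio of the FPKM of 2 enzymes within each library (vertical axis) for 2 pairs, by group; points are samples and bars give mean and SD (n = 3), on axes that do not start at 0. Aldh18a1 over Oat is separated between the groups, and Got2 over Got1 overlaps.

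The other genes of these pathways were called at shares near or below those of all genes. Of 48 genes in 6 lists, 35 were tested, 5 were lower, 6 higher and 24 not called, with a median log2 fold change of 0.06. Across all genes tested, 17.1% were lower and 22.3% higher, with a median of 0.05. Scaled to T lineage genes, which moved the median of all genes by -0.457, 29 of the 35 were lower and 0 higher, beside 71.4% of all genes lower. Among the genes of proline, ornithine and arginine metabolism, Pycr3 and Ass1, argininosuccinate synthase (-0.38), were lower. Prodh, which begins proline breakdown, was below the filter in every sample, at 0.38 to 0.8 and 0.19 to 0.3 FPKM.

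Nars, the cytosolic asparaginyl-tRNA synthetase, did not pass (-0.23, limma adjusted p = 0.0623). Of 6 genes that charge tRNA with glutamine or glutamate, Qrsl1, a subunit of the mitochondrial amidotransferase, was higher (0.41). Of 8 tested genes that use the amide of glutamine, Ctps2, which makes CTP, was higher (0.40). The mitochondrial carriers of the malate-aspartate shuttle moved apart: Slc25a12 and Slc25a11 were higher (0.28 and 0.26), and Slc25a13 was lower (-0.77), from 2.14 to 0.84 FPKM. Mdh2, the mitochondrial malate dehydrogenase, was lower (-0.21), a size below the study's rule. The list's count of lower calls fell from 2 to 1 without MWA+PBS replicate 1 or 3 or MWA+2DG replicate 5 or 6, and that of higher calls from 2 to 1 without MWA+PBS replicate 3 or MWA+2DG replicate 4 or 6.

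**Figure D4:**
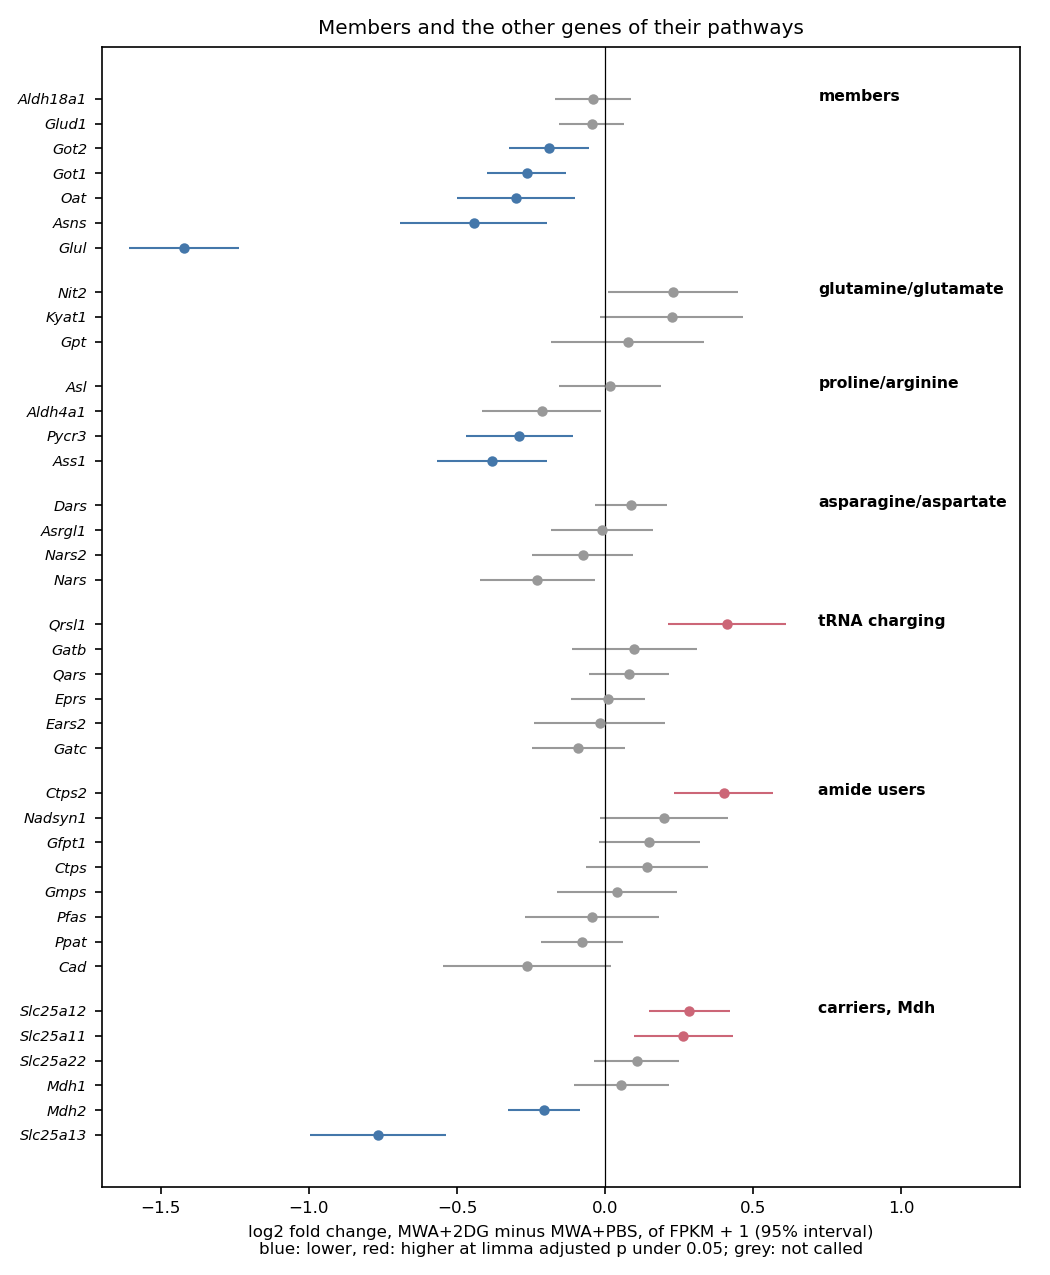
Log2 fold change with 95% interval (horizontal axis, MWA+2DG minus MWA+PBS) of the 7 tested members and 31 of the 35 tested genes of the pathway lists (vertical axis); blue is lower, red higher and grey not called. Glul is the farthest from 0, the 5 called members are lower, and the pathway genes lie on both sides.

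Proliferation genes were compared because dividing T cells raise many of these enzymes. Of 20 tested, 18 were lower, with a median of -0.74, beside 17.1% of all genes lower and a median of 0.05, led by Aurkb (-1.05), Ccna2 (-0.96) and Kif11 (-0.91). Their sum was 349 to 368 FPKM in the MWA+PBS samples, and 250 to 260 FPKM in the others. Whether the lower levels of Asns, Got1, Got2 and Oat moved with proliferation beyond the shared grouping was not tested. Granulocyte progenitor and erythroid markers were lower too and T lineage markers higher, and which cells held the proliferation transcripts was not tested.

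**Figure D5:**
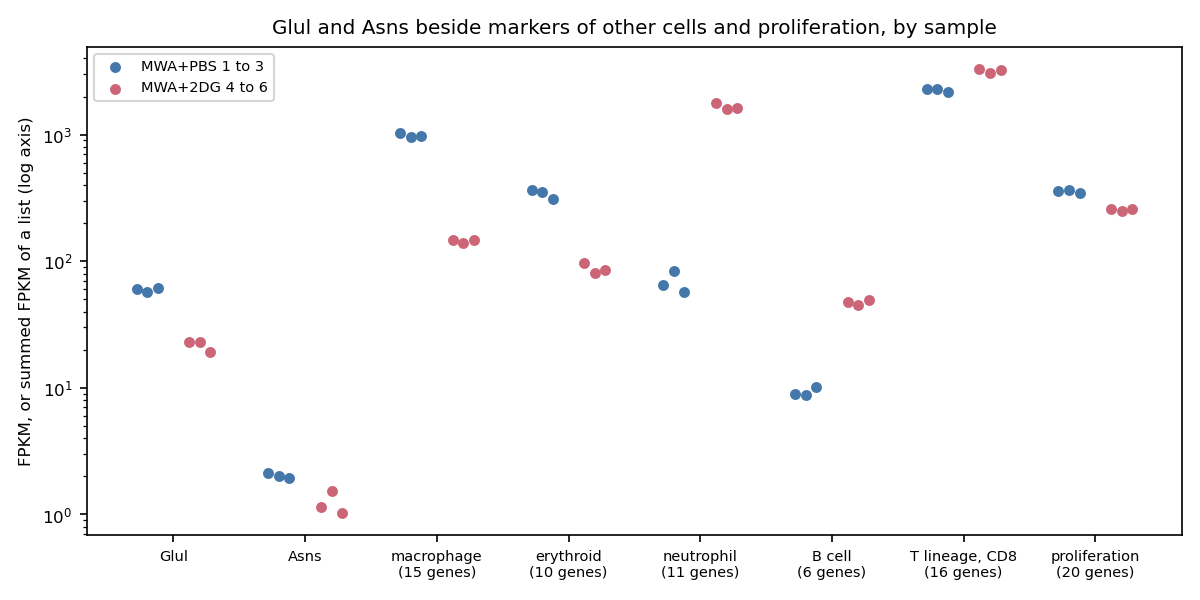
FPKM of Glul and Asns and summed FPKM of marker lists in each sample, on a log axis. Macrophage, erythroid and proliferation sums are lower and neutrophil, B cell and T lineage sums higher in MWA+2DG, and no list overlaps between the groups.

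The genes whose 6 values, each centred on the gene's mean, lay nearest to those of each called enzyme by root mean square on the log2 scale were listed by a fixed rule. For Glul these were Acp2 (0.048), Tlr8 (0.055) and Cd93 (0.061). For Got1 they were Cldnd1, Slc36a1 and Gm49172, for Got2 Ripk3, Nans and Patl1, for Oat Gm12184, Gm12070 and Serpina3f, and for Asns Gm43737, Tsc22d2 and Pacsin2, all between 0.019 and 0.057. The likeness is over 6 samples in 2 groups, so that genes with a similar difference between groups are near by construction.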

How the data were processed

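The deposited values are FPKM, which the authors computed per gene and sample. Per the study's methods and the submitters' processing notes, poly(A) RNA was sequenced, reads were trimmed and checked (cutadapt 1.9, fastp), mapped with HISAT2 2.0.4 and assembled with StringTie 1.3.4d and ballgown. UMI-tools and the build mm9 are named there too. The use of strand and molecular identifiers was not stated. FPKM holds no read counts, so the depth and the counting error of each value are unknown. Being relative to the library, the FPKM of one gene falls when others rise.

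Symbols were matched by Ensembl ID (28689 of 28773). Genes with a mean FPKM of at least 1 were tested on log2(FPKM + 1) with limma 3.58.1 in R 4.3.3 (lmFit, eBayes with trend, two-sided, no covariates), with Benjamini-Hochberg adjustment over all genes tested. Ratios were tested by exact permutation. The text names all 9 genes, pathway genes called (up to 3 each way for lists with more than 6 calls) and the 3 nearest genes of each called member. The members and lists were chosen with earlier results of these data known. Some genes of the lists and the ratios that use them are not reported here. The fit was tested on simulated data. Near copies were sought with BLAST 2.17.0 among GENCODE M21 transcripts (at least 90% identity over 300 bases). The promoter motifs and sequences were examined after the fold changes were seen.

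Alternatives were a pseudocount of 0.1, no filter, a mean FPKM of at least 5, quantile, median ratio and rescaled total normalization, scaling to T lineage genes, eBayes without trend, arrayWeights and leaving out each sample. Columns of per-sample values that were not used numbered 0.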

Additional observations from a re-analysis of the deposited data

How the results depend on the processing

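No paired analysis was possible because the groups have no sample number in common (1 to 3 against 4 to 6). Of 111 values of the 7 tested members under the alternatives, 92 kept their direction and side of the threshold, 17 lost a call, 2 gained one and 0 reversed. Gpt2, untested with the filter, was called lower without it, and Pycr1 was not. Glul was called in all 15 alternatives other than leaving out MWA+PBS 1 and 2 together, between -1.88 and -1.34, and Got1 in 15, between -0.72 and -0.24. Got2 was called in 9 of 15, and its call was lost with eBayes without trend (limma adjusted p = 0.0549). Oat was called in 9 of 15, and its call was lost without a filter (limma adjusted p = 0.0612). Leaving out 1 sample gave 2 to 5 members lower at an adjusted p, with 2 when MWA+PBS replicate 1 was left out, 5 for MWA+PBS replicate 3 and 3 otherwise, while 12.7% to 17.5% of all genes were lower in these fits, against 17.1%. In the pathway lists together it gave 3 to 7 lower and 4 to 7 higher, against 5 and 6. Without the pair MWA+PBS 1 and 2, chosen after seeing the data, 1 member was lower at an adjusted p and 2 by the study's rule, and in the pathway lists 3 were lower and 3 higher; this fit has fewer samples. T lineage scaling moved the median of all genes by -0.457, to -0.41, and made 71.4% of all genes lower. Under it 7 members were lower by the study's rule, 29 pathway genes were lower and 0 higher, and Glud1 and Aldh18a1 were called at -0.50 each, close to that median. With a mean FPKM of at least 5, which leaves Asns untested, 3 pathway genes were lower and 4 higher, beside 15.9% of all genes lower. With arrayWeights 8 were lower and 8 higher, beside 21.5% of all genes lower. The cause of the other changes was not tested. Depth is unknown, which limits what the values of Gpt2, Pycr1 and Asns show, the members with the lowest FPKM.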
